A study of Mus musculus with 25 samples.

Results

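Fat progenitor marker genes were followed in perigonadal white adipose tissue, the fat depot around the epididymis, of male C57BL6/J mice. The genes were *Pdgfra*, *Pdgfrb*, *Dpp4*, *Pi16*, *Cd34*, *Ly6a*, *Dlk1*, *Zfp423*, *Cd24a* and *Thy1*, chosen by name, and the array carried 18 probes for these 10 genes among 56605 distinct gene probes. All 18 were among the 40561 probes of the deposited expression table, and all 18 were well above background on all 25 arrays. The 25 arrays were 1-colour Agilent mouse arrays. All mice were fasted for 24 h and then refed for 18 h with food and water containing 20% glucose, which activates the glucose-responsive transcription factor ChREBP, the product of *Mlxipl*.

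The 4 groups came from 2 mouse lines, each with its own WT mice. ChREBPbeta KO mice (n = 6) lacked the exon specific to the shorter ChREBPβ isoform in all tissues, after embryos had been edited with CRISPR/Cas9, and ChREBPbeta WT mice (n = 7) were the WT of that line. ChREBPtotal KO mice (n = 5) were *Mlxipl*-null and lacked both isoforms in all tissues, and ChREBPtotal WT mice (n = 7) were the WT of the null line. Age was not given in the sources used here. Both deletions were present in every cell type of the depot, so that effects on progenitors and on adipocytes cannot be told apart. The tissue was whole fat, in which fewer cells of a type and less RNA per cell cannot be told apart either. The labels did not say that each array came from a separate mouse, and p-values measured the spread between these arrays.

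Adipose tissue holds, beside mature adipocytes, a stromal fraction of progenitors that replenish the fat cells. *Pdgfra* and *Pdgfrb* encode the receptor tyrosine kinases that bind platelet-derived growth factors and mark mesenchymal progenitors and perivascular cells. *Dpp4*, a cell surface peptidase, and *Pi16*, a secreted peptidase inhibitor, mark interstitial progenitors upstream of committed preadipocytes. *Cd34*, *Ly6a* (Sca-1), *Cd24a* and *Thy1* encode surface proteins used to sort progenitors, and each is also made by other cell types: *Cd34* by endothelium, *Ly6a* by endothelial and immune cells, *Cd24a* by epithelium and B cells, *Thy1* by T cells. *Dlk1* (Pref-1) encodes a Notch-related protein that restrains adipocyte differentiation and also occurs in endocrine glands. *Zfp423* encodes a zinc-finger transcription factor that commits preadipocytes and, in mature adipocytes, restrains the thermogenic program.

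The probes that the main results turned on are shown by the first 30 of their 60 bases, in the order of the array file, with mm9 positions from the array design. The transcript part (exon or untranslated region) under a probe was not annotated in the sources used here. The lone *Ly6a* probe lay at chr15:74825553-74825612 on the minus strand. The *Zfp423* probes lay at chr8:90185710-90185769 (brighter) and chr8:90186099-90186158, both on the minus strand. The *Dlk1* probes lay at chr12:110698721-110698781 (brighter) and chr12:110698428-110698487, and the *Cd24a* probes at chr10:43303932-43303991 (brighter) and chr10:43303706-43303765, all on the plus strand.
Ly6a: tatgagttatagaagctccaaggtgggagt
Zfp423, brighter probe: tgacttgatctgactgcagtaactagttca
Zfp423, second probe: agctagtgtgcttttagagttttcgccgca
Dlk1, brighter probe: tacacatattgtcttgtgttgctggtgcca
Dlk1, second probe: tgcgctacaaccacatgcttcgcaagaaga
Cd24a, brighter probe: cctcacacctgcatgctgtacatctatttg
Cd24a, second probe: cttggttctaccgtaagtttttccaatttc
No run of 20 bases of any of the 18 probes occurred in a probe of another gene on the array.

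The windows before the annotated starts of *Zfp423* are printed because this member passed the test in both comparisons in which any member did. RefSeq promoter windows (GRCm38.p6) were held for 6 of the 10 genes (*Cd34*, *Dpp4*, *Pdgfra*, *Zfp423*, *Dlk1* and *Pi16*), with 7 windows. No window was held for *Ly6a*, *Pdgfrb*, *Cd24a* or *Thy1*, so these genes were not searched. The motif CACGTG, the E-box core to which ChREBP binds with its partner Mlx, was in 0 of the 7 windows of 250 bases and in 6.02% of all 32851 windows of this length. The carbohydrate response element consensus, the longer motif bound by ChREBP and Mlx, was in 0 of the 7 and in 0.387% of all windows. The general E-box CANNTG, which includes CACGTG, was in 4 of the 7 windows, those of *Dpp4*, *Pdgfra* and both of *Zfp423*, and in 66.2% of all windows. All searches covered both strands. The *Zfp423* windows lay on the minus strand, at chr8:87959596-87959845 and chr8:87804440-87804689, with CANNTG in capitals.
Zfp423, upstream start: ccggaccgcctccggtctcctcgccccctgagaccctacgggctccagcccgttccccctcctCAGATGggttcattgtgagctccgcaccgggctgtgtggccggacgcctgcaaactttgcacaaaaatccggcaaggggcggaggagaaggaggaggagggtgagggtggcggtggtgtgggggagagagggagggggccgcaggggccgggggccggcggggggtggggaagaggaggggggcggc
Zfp423, downstream start: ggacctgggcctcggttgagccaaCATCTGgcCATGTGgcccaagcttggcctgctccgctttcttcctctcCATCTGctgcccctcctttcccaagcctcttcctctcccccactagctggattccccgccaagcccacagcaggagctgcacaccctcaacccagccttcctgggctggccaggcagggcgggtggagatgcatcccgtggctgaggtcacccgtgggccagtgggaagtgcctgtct
A match is a run of letters, not a measured site, and no match says only that these letters were not in the windows.

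The check of the genotypes was the level of *Mlxipl*. Its brightest probe read 15.74 to 16.24 (median 16.00) on the log2 scale of the deposited table in ChREBPtotal WT and 14.07 to 14.29 (median 14.23) in ChREBPtotal KO, and fell by 1.77 ± 0.14 (SE, adjusted p = 1.11e-08). It read 14.72 to 15.46 (median 15.06) in ChREBPbeta WT and 14.02 to 14.64 (median 14.34) in ChREBPbeta KO, a difference of -0.74 (unadjusted p = 1.15e-05, adjusted p = 0.116) without overlap of the groups. The WT groups differed as well, by 0.91 ± 0.12 (SE, adjusted p = 3.99e-05), with every ChREBPtotal WT array above every ChREBPbeta WT array. The brightest probe still read at least 14.07 in ChREBPtotal KO, where the median of the deposited table was 7.96. It thus showed a lower level and not absence of the transcript. Of the other 2 *Mlxipl* probes, 1 fell in ChREBPtotal KO (-0.66, adjusted p = 0.00103). In ChREBPbeta KO it differed by -0.47 (unadjusted p = 0.000668, adjusted p = 0.255). The other did not pass in either knockout (0.08 and -0.06). Where the probes lie relative to the deleted exon was not annotated in the sources used here. The tests throughout were limma fits over 40561 probes with the 4 groups and the 4 wash batches as terms, Benjamini-Hochberg adjustment over all probes and a threshold of 0.05. Each gene was read from its brightest probe.

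Genes of other organs were measured at levels that differed between arrays. The liver mean differed between the lines and was lower in ChREBPtotal KO than in its WT at the median, and the epididymis mean was high on single arrays of every group. The mean log2 level of 10 liver genes, among them albumin and fibrinogen genes, was 13.0 to 16.3 in ChREBPbeta WT, 11.6 to 15.8 in ChREBPbeta KO, 8.68 to 13.8 in ChREBPtotal WT and 8.44 to 9.42 in ChREBPtotal KO. The mean of 7 kidney genes ran up to 11.8 in ChREBPbeta WT against 7.88 at most in ChREBPtotal WT. The mean of 4 epididymis and vas deferens genes lay between 5.72 and 7.48 on 20 arrays and reached 8.98 to 11.4 on the other 5, of which 2 were ChREBPtotal WT and 1 came from each of the other groups. Adipocyte identity was present on all arrays, with the mean of 12 adipocyte genes between 15.9 and 16.3.

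Loss of both isoforms was accompanied by a fall of *Ly6a* and a rise of *Zfp423*, and 8 of the 10 progenitor markers did not pass the test. These 2 members stood against a background in which 9.25% of 26420 genes passed (2444 genes, of which 1484 rose and 960 fell). The median log2 difference of the 10 members was -0.14, against 0.02 over all genes.

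*Ly6a* read 13.41 to 13.88 (median 13.63) in ChREBPtotal WT and 12.99 to 13.31 (median 13.25) in ChREBPtotal KO. Every KO array lay below every WT array. *Ly6a* fell by 0.49 ± 0.10 (SE, 95% interval -0.70 to -0.27, adjusted p = 0.00332), that is to 0.714 times the WT level. Within the wash batches the difference was -0.55, -0.31, -0.55 and -0.54. In ChREBPbeta WT the gene read 13.21 to 13.82 (median 13.38) and in ChREBPbeta KO 13.14 to 13.58 (median 13.28). The order of the group means was therefore ChREBPtotal WT, ChREBPbeta WT, ChREBPbeta KO and ChREBPtotal KO, and each neighbouring pair overlapped.

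*Ly6a* belongs to a cluster of Ly6 genes on its chromosome that encode small lipid-anchored surface proteins. Of 14 genes of the Ly6 family, a list written after the values were seen, 4 fell in ChREBPtotal KO and 0 rose, where 960 of all 26420 genes fell. *Ly6a* prompted the list and is 1 of the 4, so the count is a description. Beside *Ly6a* these were *Ly6g* (-0.56 ± 0.11 SE, adjusted p = 0.00157), *Ly6h* (-0.85 ± 0.23 SE, adjusted p = 0.0219) and *9030619P08Rik* (-0.34 ± 0.11 SE, adjusted p = 0.0476). *Ly6c1* and *Ly6c2*, abundant on endothelial cells and monocytes, differed by -0.14 and -0.21 and did not pass (adjusted p = 0.484 and 0.291). *Gpihbp1*, which carries lipoprotein lipase across capillary endothelium, differed by -0.02 (adjusted p = 0.96). *Ly6g* and *9030619P08Rik* were also the 2 genes, of 18855 searched, whose pattern over the 25 arrays was most like that of *Ly6a* (r = 0.89 and 0.88, and 0.79 and 0.87 for deviations from the group means).

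*Zfp423* moved the other way. It read 9.80 to 10.53 (median 10.38) in ChREBPtotal WT and 10.69 to 10.95 (median 10.83) in ChREBPtotal KO, without overlap. The rise was 0.53 ± 0.12 (SE, 95% interval 0.29 to 0.78, adjusted p = 0.00478), a 1.45-fold level, and it had the same sign in every wash batch (0.59, 0.38, 0.29 and 0.74). The second probe rose by 0.44 ± 0.12 (SE, adjusted p = 0.0261), also without overlap. The probes followed each other over the 25 arrays (within-group r = 0.83). With the liver, kidney and epididymis means as covariates, an alternative chosen after the data were seen, the difference was 0.31 and did not pass (adjusted p = 0.108).

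*Zfp423* was also the 1 member that differed between the WT groups. It read 10.65 to 10.90 (median 10.73) in ChREBPbeta WT, so that every ChREBPtotal WT array lay below every ChREBPbeta WT array. The level of ChREBPtotal WT was lower by 0.48 on the log2 scale (difference -0.48 ± 0.11 SE; 95% interval -0.70 to -0.26, adjusted p = 0.00269), and that of the second probe differed by -0.33 (adjusted p = 0.0337). With the liver, kidney and epididymis means as covariates the difference of the brighter probe was -0.82 (adjusted p = 0.00663). This was 1 of 10 members against 22% of all genes (5824 of 26420), of which 3575 were higher and 2249 lower in ChREBPtotal WT. The ChREBPtotal KO range for *Zfp423* overlapped the range of ChREBPbeta WT. Line, litter and the organ signals named above cannot be told apart in this comparison. The group means of *Mlxipl* and *Zfp423* were 15.98 and 10.28 in ChREBPtotal WT and 14.21 and 10.81 in ChREBPtotal KO. They were 15.07 and 10.76 in ChREBPbeta WT and 14.34 and 11.09 in ChREBPbeta KO. ChREBPbeta WT and ChREBPtotal KO are of different lines, so these means cannot tell line from *Mlxipl* level. An effect of *Mlxipl* on *Zfp423* was not tested. Within groups the r of *Zfp423* with *Mlxipl* was -0.18 (rho -0.35, permutation p = 0.399 and 0.107, adjusted over 10 members 0.852 and 0.357, with r -0.31 without the 2 farthest arrays, -0.21 with wash batch removed).

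**Figure D1:**
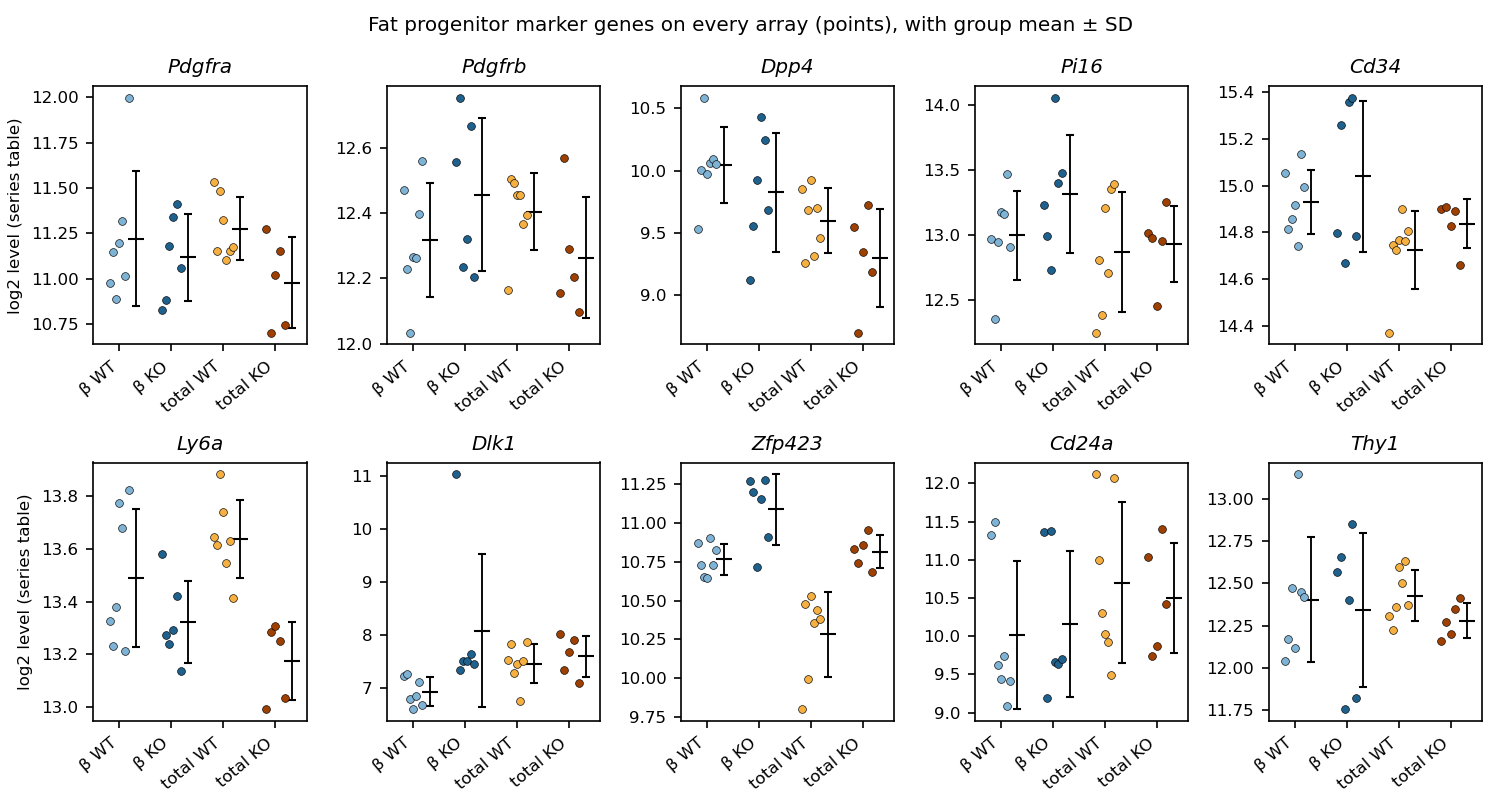
Log2 level of the brightest probe of each of the 10 genes (y axes, each on its own scale) on every array (points), by group, with mean ± SD. *Ly6a* of ChREBPtotal KO (12.99 to 13.31) lies below its WT, *Zfp423* of ChREBPtotal WT (9.80 to 10.53) lies below the other 3 groups, and 1 *Dlk1* value of ChREBPbeta KO (11.03) stands apart.

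Loss of ChREBPβ alone moved none of the 10 members past the threshold, as it moved none of the 26420 genes (0% called, with 2497 genes, 9.45%, at an unadjusted p under 0.05). At that unadjusted level 2 members differed, *Zfp423* and *Dlk1*. *Zfp423* read 10.71 to 11.27 (median 11.18) in ChREBPbeta KO and differed by 0.33 ± 0.11 (SE, 95% interval 0.10 to 0.56, unadjusted p = 0.00788, adjusted p = 0.402), positive in all 4 wash batches. Its second probe differed by 0.26 ± 0.12 (SE, adjusted p = 0.523). The order of *Zfp423* means was thus ChREBPbeta KO, ChREBPtotal KO, ChREBPbeta WT and ChREBPtotal WT, with overlap between all neighbours but the last pair. The genes most like it over the arrays were *Rasgrf2*, a guanine nucleotide exchange factor of Ras (r = 0.96, within groups 0.89), and *Npdc1* (r = 0.96, within groups 0.90).

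*Dlk1* read 6.59 to 7.26 (median 6.84) in ChREBPbeta WT and 7.34 to 11.03 (median 7.51) in ChREBPbeta KO, so that every KO array lay above every WT array. The difference was 1.12 ± 0.42 (SE, unadjusted p = 0.0153, adjusted p = 0.434). A single array, ChREBPbeta KO replicate 2 at 11.03, carried much of it. Without that array the other KO arrays still read no less than 7.34 and no more than 7.64, and the difference was 0.52 (unadjusted p = 0.00674, adjusted p = 0.732). The second, dimmer probe also read highest on that array (8.54) but overlapped between the groups (5.86 to 6.61 in WT, from 6.14 in KO), and differed by 0.51 (adjusted p = 0.593). ChREBPtotal WT (6.76 to 7.86, median 7.50) and ChREBPtotal KO (7.09 to 8.01, median 7.67) overlapped widely, with a difference of 0.09 ± 0.45 (SE, adjusted p = 0.951).

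The array with the high *Dlk1* value carried hormone genes as well. Over all named genes, the gap between that array and the next was widest for *Chgb* (4.02 log2 units), then *Dlk1* (3.02) and *Pomc* (3.01). *Pomc*, the precursor of corticotropin, read 11.32 there and 7.78 to 8.31 elsewhere. *Chgb*, a granin of secretory granules, read 11.49 there and 4.98 to 7.47 elsewhere. Of 12 neuroendocrine genes, a list written after the values were seen, 7 were measured and 6 of them were highest on that array. *Chgb* and *Pomc*, already named for their gaps, are among the 6, so the count is a description. Of 4 other genes of the *Dlk1* imprinted locus (*Meg3*, *Rian*, *Mirg* and *Dio3*), 0 were highest there, and *Meg3* read 13.09 against 11.76 to 13.10 on the others. The same array had the highest mean of the 10 mural genes of all 25 arrays (13.2). Its means of the epididymis and vas deferens genes (9.07) and of 12 epithelial genes (8.40) were the highest of ChREBPbeta KO. The part of any of these genes in the *Dlk1* difference was not tested. Over all 25 arrays the patterns most like *Dlk1* were those of *Pomc* (r = 0.87) and *Chgb* (r = 0.85). Over the other 24 arrays they were those of *Mmp12* (r = 0.81, within groups 0.64) and *Gpnmb* (r = 0.74, within groups 0.61), genes known from lipid-laden macrophages. *Dlk1* did not follow the list of 12 macrophage genes within groups over 25 arrays (r = -0.007, rho = 0.002, adjusted permutation p = 0.979 and 0.998). Without the 2 farthest arrays that r was -0.03.

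The remaining members showed intervals around 0 in both knockouts. The PDGF receptors did not pass in any comparison. *Pdgfra* read 10.89 to 11.996 in ChREBPbeta WT, 10.83 to 11.41 in ChREBPbeta KO, 11.10 to 11.53 in ChREBPtotal WT and 10.70 to 11.27 in ChREBPtotal KO. Its difference was -0.28 (95% interval -0.56 to 0.01, adjusted p = 0.266) with loss of both isoforms and -0.12 (-0.39 to 0.15, adjusted p = 0.847) with loss of ChREBPβ. With loss of both isoforms the unadjusted p was 0.0566, and the wash batches gave -0.48, -0.14, -0.38 and -0.08. The dimmer *Pdgfra* probes differed by -0.21 and -0.07 with loss of both isoforms and by -0.11 and -0.01 with loss of ChREBPβ. *Pdgfrb* read 12.03 to 12.56, 12.20 to 12.75, 12.16 to 12.51 and 12.10 to 12.57 in the same order of groups as the *Pdgfra* levels. Its difference was -0.15 (-0.37 to 0.08, adjusted p = 0.52) with loss of both isoforms and 0.14 (-0.08 to 0.35, adjusted p = 0.748) with loss of ChREBPβ. All 4 groups of both receptors overlapped.

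Among the ligands of these receptors, *Pdgfa*, *Pdgfb*, *Pdgfc* and *Pdgfd*, 1 of 4 rose in ChREBPtotal KO, where 9.25% of all genes passed. *Pdgfa*, the main ligand of PDGFRα, rose by 0.27 ± 0.08 (SE, adjusted p = 0.0359). *Pdgfc* differed by 0.31 (adjusted p = 0.0501) and did not pass, and this gene and the Ly6 genes that did not pass were named after their values were seen. In ChREBPbeta KO 0 of 4 passed. All 4 were at an unadjusted p under 0.05, as were 9.45% of all genes, with differences between 0.20 (*Pdgfa*) and 0.37 (*Pdgfb*). In ChREBPtotal WT *Pdgfa* (-0.28, adjusted p = 0.00856) and *Pdgfc* (-0.49, adjusted p = 0.000558) were lower than in ChREBPbeta WT. These were 2 of 4, in a comparison in which 22% of all genes passed and 2249 of 26420 were lower.

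The interstitial progenitor markers *Dpp4* and *Pi16* did not pass in any comparison. *Dpp4* read 9.53 to 10.58 (median 10.06) in ChREBPbeta WT and 9.12 to 10.43 (median 9.81) in ChREBPbeta KO. It read 9.26 to 9.93 (median 9.68) in ChREBPtotal WT and 8.70 to 9.72 (median 9.35) in ChREBPtotal KO. The difference was -0.22 (95% interval -0.64 to 0.20) in the first line and -0.28 (-0.72 to 0.16) in the second, and the WT groups differed by -0.45 (-0.85 to -0.05, unadjusted p = 0.03, adjusted p = 0.103). The dimmer *Dpp4* probes differed by 0.03 and -0.15 in ChREBPbeta KO and by -0.21 and -0.18 in ChREBPtotal KO. *Pi16* read 12.36 to 13.47 in ChREBPbeta WT, 12.73 to 14.06 in ChREBPbeta KO, 12.25 to 13.39 in ChREBPtotal WT and 12.46 to 13.26 in ChREBPtotal KO. Its difference was 0.36 (-0.02 to 0.75, adjusted p = 0.58) and 0.12 (-0.28 to 0.52, adjusted p = 0.825). All neighbouring groups of either gene overlapped.

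The surface markers *Cd34* and *Thy1* had group means close to each other. *Cd34* averaged 14.93 ± 0.14 (SD) in ChREBPbeta WT, 15.04 ± 0.32 in ChREBPbeta KO, 14.72 ± 0.17 in ChREBPtotal WT and 14.84 ± 0.10 in ChREBPtotal KO, and its difference was 0.13 in either knockout (95% intervals -0.10 to 0.36 and -0.11 to 0.37). The second, dimmer *Cd34* probe differed by -0.008 in ChREBPbeta KO and 0.007 in ChREBPtotal KO. *Thy1* averaged 12.40 ± 0.37 (SD), 12.34 ± 0.45, 12.43 ± 0.15 and 12.28 ± 0.10 in the same order of groups, with differences of -0.06 (-0.42 to 0.31) and -0.13 (-0.52 to 0.26). *Thy1* varied more in the ChREBPbeta line, from 11.75 to 13.15, than in the ChREBPtotal line, from 12.16 to 12.63. These spreads are a description and were not tested.

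*Cd24a* was the member with the widest spread in ChREBPbeta WT, ChREBPtotal WT and ChREBPtotal KO (SD 0.97, 1.05 and 0.72), whereas *Dlk1* spread most in ChREBPbeta KO (SD 1.45, against 0.96 for *Cd24a*). It read 9.08 to 11.49 (median 9.62) in ChREBPbeta WT, 9.20 to 11.38 (median 9.68) in ChREBPbeta KO, 9.49 to 12.12 (median 10.30) in ChREBPtotal WT and 9.75 to 11.41 (median 10.43) in ChREBPtotal KO. Arrays near or above 11 occurred in all 4 groups. The difference was 0.08 (95% interval -1.01 to 1.17) in the first line and -0.23 (-1.38 to 0.92) in the second, so that changes of over 1.5-fold in either direction lay within the intervals. Both *Cd24a* probes gave the same picture (within-group r = 0.99).

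**Figure D2:**
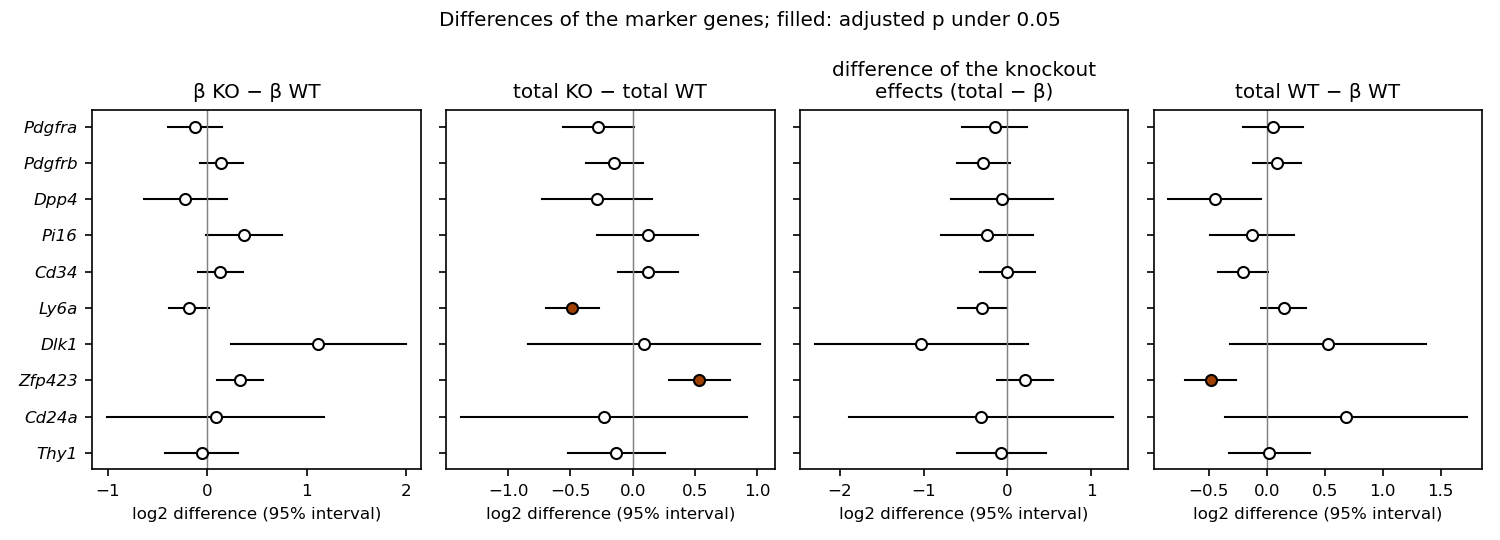
Log2 differences of the brightest probe of each gene (x axes) with 95% intervals in the 4 comparisons. Filled points passed at an adjusted p under 0.05. *Ly6a* (-0.49) and *Zfp423* (0.53) passed for ChREBPtotal KO, *Zfp423* (-0.48) passed between the WT groups, and the intervals of *Cd24a* and *Dlk1* are the widest.

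Whether the knockouts differed in their effects was tested by the difference of the 2 differences. Of the members 0 of 10 passed, against 3.47% of all genes (918 of 26420). *Ly6a* was the 1 member at an unadjusted p under 0.05, with a difference of -0.30 ± 0.14 (SE, 95% interval -0.59 to -0.01, unadjusted p = 0.0455, adjusted p = 0.373). For *Zfp423* the difference was 0.21 ± 0.16 (SE, -0.13 to 0.54, adjusted p = 0.719). The effects on *Ly6a* and *Zfp423* in ChREBPtotal KO were therefore not shown to differ from those in ChREBPbeta KO.

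Other genes of the progenitor and adipocyte states gave a background for the 10 members. Their counts in ChREBPtotal KO stand beside the 9.25% of all genes that passed there, and nothing particular to a list is read from them. Of 13 further interstitial progenitor genes, 0 passed in either knockout (median difference 0.09 for ChREBPbeta KO and -0.01 for ChREBPtotal KO). In ChREBPtotal WT 3 were lower than in ChREBPbeta WT, *Dact2* (-0.95), *Efhd1* (-0.54) and *Anxa3* (-0.46), and 0 were higher. Of all 26420 genes 22% differed there, and 2249 were lower. The median difference of the 13 genes was -0.23, against 0.04 over all genes. Their mean level was 11.28 to 11.51 in ChREBPtotal WT and 11.56 to 11.84 in ChREBPbeta WT. Differences of list means were not tested. Of 10 committed preadipocyte genes, 2 passed in ChREBPtotal KO: *Lpl*, the lipase that frees fatty acids from lipoproteins, rose by 0.58 ± 0.07 (SE, adjusted p = 3.96e-06), and *Ggt5* fell by 0.50 ± 0.11 (SE, adjusted p = 0.00508). *F3* (CD142, tissue factor), 1 of 8 genes of the CD142-positive stromal cells that restrain adipogenesis, fell by 1.35 ± 0.19 (SE, adjusted p = 4.12e-05), and the other 7 did not pass. Of 10 fibroblast matrix genes *Col6a3* rose by 0.61 ± 0.13 (SE, adjusted p = 0.00435).

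Of 14 adipogenic regulators 3 passed in ChREBPtotal KO, against the same 9.25% of all genes. *Tle3*, a corepressor that acts with PPARγ, rose by 0.52 (adjusted p = 0.00521), *Cebpa*, a master factor of the adipocyte, rose by 0.30 (adjusted p = 0.025), and *Wisp2*, a secreted protein of the Wnt pathway, fell by 1.13 (adjusted p = 0.0144). *Wisp2* and *Cebpa* also differed between the knockout effects, by -2.07 (adjusted p = 0.00289) and 0.44 (adjusted p = 0.031). Of 12 adipocyte genes *Acsl1* (0.63), *Plin1* (0.43) and *Cidec* (0.39) rose and *Slc2a4*, the insulin-regulated glucose transporter GLUT4, fell by 1.40. In ChREBPbeta KO 0 genes of these lists passed. Of the endothelial (12), macrophage (12), lymphocyte (12) and mesothelial (12) genes measured, 0 passed in either knockout. Of 10 mural genes 1 passed in ChREBPtotal KO, *Rgs5*, which rose by 0.33 (adjusted p = 0.0387), with a median difference of -0.06 over the 10.

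The 10 markers did not rise and fall as 1 block over the arrays. Of 45 pairs, 1 passed, *Dlk1* with *Cd24a* (r = 0.49 and rho = 0.50 for deviations from group means over 25 arrays, permutation p = 0.00108 and 0.00574, adjusted p = 0.0486 and 0.0873, with r = 0.56 without the 2 farthest arrays, 0.49 with wash batch removed). By rank correlation 0 pairs passed (10 at an unadjusted permutation p under 0.05), and 0 passed with wash batch removed or without the 2 farthest arrays. The r values ran from -0.48 (*Pdgfrb* with *Dpp4*) to 0.59 (*Pdgfrb* with *Cd34*), with a median of 0.08. *Zfp423* had r values of 0.58 with *Cd34*, 0.53 with *Thy1* and 0.52 with *Pdgfrb*, none past the threshold (adjusted permutation p = 0.0926 each).

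**Figure D3:**
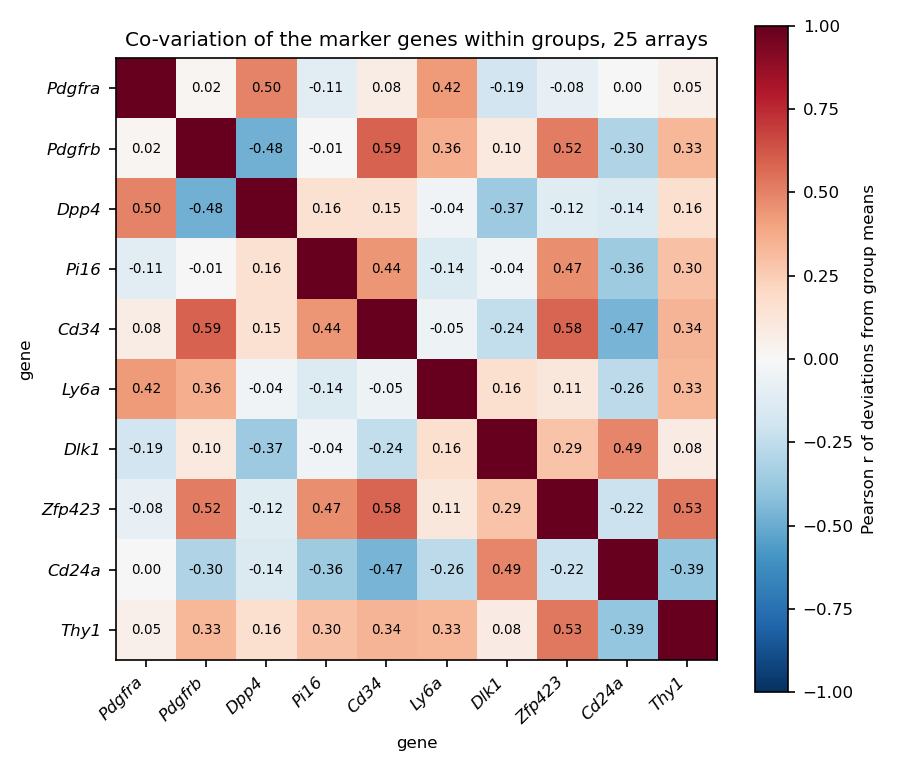
Pearson r of deviations from group means for each pair of the 10 genes over 25 arrays (colour and printed value, red positive, blue negative). The values run from -0.48 to 0.59 with no common block.

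The levels of the members were set against those of neighbouring cell types. Of 180 relations between the 10 members and the mean levels of 18 gene lists, 23 passed by Pearson r. The epithelial and neuroendocrine lists among these were written after the values were seen, so p-values for them are a description. Whether members differed in what they followed was not tested. All values that follow are for deviations from group means over 25 arrays, with permutation p-values adjusted over the 180. *Cd24a* followed 12 epithelial genes such as *Epcam* and *Cldn7*, a list written after the values were seen (r = 0.93, rho = 0.80, adjusted p = 0.0018 and 0.0054, with r = 0.92 without the 2 farthest arrays, 0.93 with wash batch removed). It followed the 4 epididymis and vas deferens genes less closely (r = 0.68, rho = 0.66, adjusted p = 0.0242 and 0.0268, with 0.71 and 0.73 under the same alternatives). It ran against the 10 committed preadipocyte genes (r = -0.62, rho = -0.74, adjusted p = 0.0241 and 0.0112, with -0.49 and -0.63). *Epcam* itself, the epithelial adhesion molecule, ran from 4.51 to 9.97 over the arrays, with a within-group r of 0.92 with *Cd24a*, and the genes most like *Cd24a* were *Tmc4* (r = 0.97) and *Chrna2* (r = 0.97). The part of epithelial RNA in the *Cd24a* level was not tested.

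*Dpp4* followed 12 mesothelial genes (r = 0.79, rho = 0.73, adjusted p = 0.0024 and 0.0168, with 0.71 without the 2 farthest arrays, 0.79 with wash batch removed), the genes of the lining of the depot. It also followed 12 macrophage genes (r = 0.55, rho = 0.63, adjusted p = 0.0424 and 0.0268, with 0.61 and 0.53). It ran against 12 endothelial genes (r = -0.65, rho = -0.57, adjusted p = 0.0171 and 0.0621) and 10 mural genes (r = -0.60, rho = -0.49, adjusted p = 0.0407 and 0.153). With the 13 other interstitial progenitor genes its r was 0.66 (rho = 0.57, adjusted p = 0.0311 and 0.0908). *Pdgfrb* followed the endothelial genes (r = 0.74, rho = 0.65, adjusted p = 0.0099 and 0.0311, with 0.70 and 0.77) and the 12 adipocyte genes (r = 0.74, rho = 0.72, adjusted p = 0.0024 and 0.0112, with 0.75 and 0.76). It also followed the committed preadipocyte genes (r = 0.58, rho = 0.59, adjusted p = 0.0171 and 0.0363, with 0.45 and 0.63) and ran against the liver genes (r = -0.57, rho = -0.51, adjusted p = 0.0343 and 0.108). *Cd34* followed the committed preadipocyte genes by Pearson r (r = 0.56, rho = 0.50, adjusted p = 0.0241 and 0.0908, with 0.37 and 0.60) and ran against 12 lymphocyte genes (r = -0.42, rho = -0.39, adjusted p = 0.0424 and 0.189, with -0.35 and -0.41). The gene most like *Pdgfrb* was *Adcy4* (r = 0.85), an adenylyl cyclase. *Pdgfra* followed the macrophage genes (r = 0.63, rho = 0.74, adjusted p = 0.0459 and 0.0054, with 0.77 and 0.51), and the genes most like it were *Loxl3* (r = 0.85), a lysyl oxidase of the matrix, and *Larp6* (r = 0.81), which binds collagen mRNA.

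*Zfp423* followed the 4 PDGF ligands (r = 0.75, rho = 0.62, adjusted p = 0.0112 and 0.0401, with 0.49 without the 2 farthest arrays, 0.75 with wash batch removed) and the 12 adipocyte genes (r = 0.66, rho = 0.67, adjusted p = 0.0147 and 0.0168, with 0.45 and 0.63). It ran against the liver genes (r = -0.65, rho = -0.53, adjusted p = 0.0424 and 0.111, with -0.41 and -0.64). *Zfp423*, *Thy1*, *Cd34* and *Pi16* each followed the 4 measured *Dlk1* locus genes (r = 0.71, 0.67, 0.64 and 0.62, adjusted p = 0.0287, 0.0287, 0.0364 and 0.0424), of which *Thy1* alone also passed by rank (rho = 0.73, adjusted p = 0.017). Without the 2 farthest arrays these r values were 0.46, 0.65, 0.41 and 0.57. *Dlk1* itself did not pass with the locus genes. It followed the epithelial genes, the list written after the values were seen, by Pearson r (r = 0.50, rho = 0.49, adjusted p = 0.0311 and 0.0737). *Ly6a* passed with none of the 18 lists. *Pi16* passed with no other list, and its nearest genes over the arrays were *Klf7* (r = 0.77) and *Frmd5* (r = 0.76). *Cd34* was most like *Timp3* (r = 0.87), a matrix metalloproteinase inhibitor, and *Cdr2l* (r = 0.84), *Dpp4* most like *Tuft1* (r = 0.88) and *Rnase4* (r = 0.88), *Thy1* most like *Elf4* (r = 0.75) and *Batf2* (r = 0.75), and the second gene of *Pdgfrb* was *Stard9* (r = 0.80). Such likeness over 18855 genes is a description of these arrays.

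**Figure D4:**
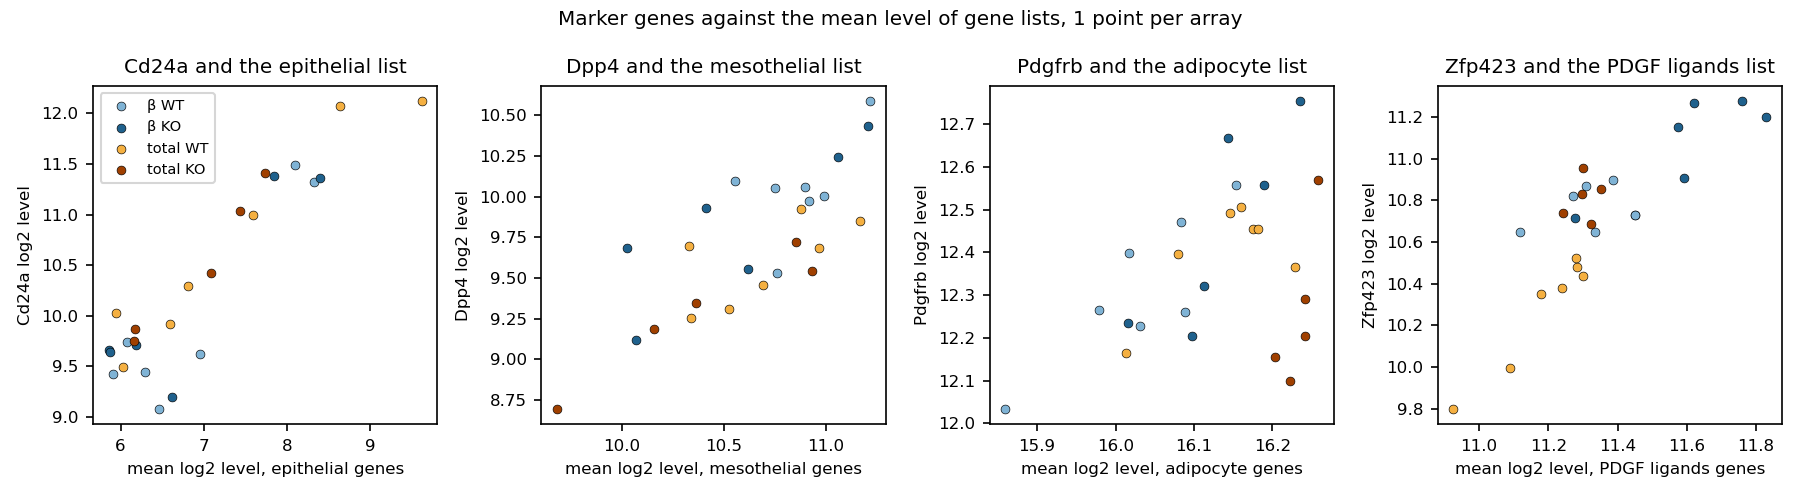
Log2 level of *Cd24a*, *Dpp4*, *Pdgfrb* and *Zfp423* (y axes) against the mean log2 level of the epithelial, mesothelial, adipocyte and PDGF ligand lists (x axes), 1 point per array, coloured by group. The within-group r values are 0.93, 0.79, 0.74 and 0.75, and *Zfp423* of the ChREBPtotal WT arrays lies lowest.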

How the data were processed

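RNA of perigonadal white adipose tissue was labelled with Cy3 and hybridised to 1-colour Agilent mouse arrays (25 arrays, 15 slides, 4 wash batches that each held all 4 groups). The authors measured the spots with Agilent Feature Extraction 10.10.1.1 and deposited raw median intensity values and a table of normalised log2 values (40561 probes), which per the study's methods were quantile normalised between arrays, filtered on spot weights and reduced to the median of repeated probes. Each column of that table correlated at 0.99982 or more with the log2 intensity of its own array. The log2 table was used here. The scanner intensity values gave the background calls and a rebuilt table (39619 probes). The median spot intensity of an array lay between 84 and 127 and the median local background between 15 and 22, 0 spots were saturated, and the number of arrays limits the precision.

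Groups were fitted with limma 3.58.1 in R 4.3.3 (4 groups and wash batch, Benjamini-Hochberg over all probes, threshold 0.05). A gene was read from its brightest probe. The members and lists were chosen with earlier results of these data known. Named genes were the members, up to 4 called genes per list with the largest changes, and the 2 genes most like each member. Alternatives were the rebuilt table, another background correction and scaling, no filter on dim probes, array quality weights, fits without the wash term, with slide or replicate number as a block, on the compared groups only, with the mean over a gene's probes or organ scores as covariates, and leaving out each array. Correlations used 100000 permutations within groups (numpy 2.4.6). On simulated data for 40561 probes, of which 200 were changed by 1 log2 unit, 90.5%, 93% and 88.5% were recovered for ChREBPbeta KO, ChREBPtotal KO and the WT comparison. False calls made up 5.73%, 5.10% and 5.35% of the probes called. Probe positions are mm9, promoters GRCm38.p6 from RefSeq.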

Additional observations from a re-analysis of the deposited data

Results flagged for a closer look

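In 5 of 40 groups tested, 4 per member, 1 array stood apart by its gap to the next array in relation to the range of the group. Chance alone marks about 1 group in 20. *Dlk1* read 11.03 on ChREBPbeta KO replicate 2, where the next array read 7.64. *Pdgfra* read 11.996 on ChREBPbeta WT replicate 8, where the next read 11.32. *Thy1* read 13.15 on ChREBPbeta WT replicate 6, where the next read 12.48. *Pdgfrb* read 12.16 on ChREBPtotal WT replicate 2, where the next lowest read 12.37. *Cd34* read 14.37 on that array too, where the next lowest read 14.72. This array also held the highest epididymis and vas deferens mean (11.4), the highest *Cd24a* level (12.12) and the lowest *Zfp423* level (9.80) of all 25.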

How the results depend on the processing

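The fall of *Ly6a* and the rise of *Zfp423* in ChREBPtotal KO kept their direction under all 11 alternative settings and with each array left out, with ranges of -0.52 to -0.42 and 0.31 to 0.55 over the settings. The count of members called in ChREBPtotal KO was 2, but 1 with the replicate block (*Ly6a* lost, -0.42, adjusted p = 0.0727) and 1 with the liver, kidney and epididymis scores as covariates (*Zfp423* lost, 0.31, adjusted p = 0.108, with *Ly6a* at -0.50, adjusted p = 0.0056), an alternative chosen after seeing the data. It was 2 with any 1 array left out. Between the WT groups it was 1, but 2 with the replicate block (*Dpp4* added, -0.61, adjusted p = 0.0119) and 3 with the groups of the comparison only (*Dpp4* and *Dlk1* added, adjusted p = 0.0323 and 0.0344), and it ranged from 1 to 2 with 1 array left out (2 without ChREBPbeta KO replicate 2). For ChREBPbeta KO and for the difference between the knockout effects it was 0 throughout. The 1 member pair called fell to 0 with wash batch removed, without the 2 farthest arrays, or by rank correlation. The numbers of the labels did not pair the arrays (r of same-numbered deviations -0.60 to 0.45 over 29 pairs, 0 of 25 arrays closest to their own number).

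Sign changes occurred in differences that did not pass as reported. For the difference between the knockout effects, *Cd34* was 0.0171 on the processed signal, 0.0024 without wash batch, 0.00039 with slide as a random block, 0.0648 with the replicate block and 0.0062 as the mean over probes, and *Dpp4*, *Pdgfra* and *Thy1* were 0.23, 0.0224 and 0.0453 with the replicate block. In ChREBPtotal KO *Dlk1* was -0.26 with the replicate block, and *Cd24a*, *Cd34* and *Pi16* were 0.19, -0.10 and -0.14 with the organ scores. Between the WT groups *Pdgfra* and *Thy1* were -0.0191 and -0.0365 with the replicate block, and *Dlk1*, *Ly6a*, *Pdgfra*, *Pdgfrb* and *Thy1* were -0.0723, -0.0531, -0.0282, -0.24 and -0.31 with the organ scores.

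With 1 array left out, *Cd24a* ranged from -0.18 to 0.41 and *Thy1* from -0.15 to 0.0801 in ChREBPbeta KO. *Dlk1* ranged from -0.0763 to 0.21 in ChREBPtotal KO, and *Thy1* from -0.0502 to 0.15 between the WT groups. For the difference between the knockout effects *Cd34*, *Dpp4* and *Thy1* ranged from -0.0764 to 0.0867, from -0.23 to 0.10 and from -0.22 to 0.0290. The cause of these changes was not tested.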
